A study of Macaca mulatta with 30 samples.

Results

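The parotid and submandibular glands of the same rhesus macaques (Macaca mulatta) were compared by RNA sequencing in 12 libraries, 6 of each gland, taken from a series of 30 libraries that also covered sublingual gland, pancreas and liver. The members were chosen by tissue: 1 parotid and 1 submandibular library of each of 6 animals, 4 female (animals 1 to 4) and 2 male (animals 5 and 6), paired by animal. Per the labels, the tissue was flash frozen, and the parotid piece came from the right gland in animal 3 and from the left in the other 5. All submandibular pieces came from the left gland. No treatment, genotype, origin or age of the animals is given in the sources used here, so both groups were taken as untreated tissue of the same individuals.

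Both glands make saliva from acinar cells, which load secretory proteins into granules, and from ducts, which change the ion content of the fluid. In primates the parotid gland is known as a serous gland, whose acini release a watery fluid rich in enzymes and proline-rich proteins. The submandibular gland is mixed, with serous and mucous acini, and its saliva is known for cystatins, which inhibit cysteine proteases, and for mucins. Plasma cells in the glands make the dimeric immunoglobulin A that the polymeric immunoglobulin receptor carries into saliva.

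Values are TPM, the length-corrected share of a gene's transcripts in its library, so a few very abundant genes lower the values of all others. The 10 most abundant genes held 72.2% ± 16.6 of all TPM in parotid (SD, n = 6) and 65.3% ± 26.6 in submandibular gland, a difference of 6.91 percentage points whose p was 0.531 in an exact sign-flip permutation test (two-sided). A pair of libraries stood apart. The submandibular library of animal 4 gave 11.1% to its 10 most abundant genes and held the adipocyte genes at a median of 658 TPM, against 0.740 to 7.22 TPM in the other 5 submandibular libraries. Its macrophage genes had a median of 85.4 TPM against 1.19 to 2.14 TPM, and its fibroblast genes 366 TPM against 1.46 to 6.38 TPM. The parotid library of animal 6 gave 38.8% to its 10 most abundant genes and held the skeletal muscle genes at a median of 10718 TPM, whereas the 5 remaining parotid libraries ranged from 0.435 to 872 TPM, with animal 1 the highest. Without animals 4 and 6, the 10 most abundant genes held 80.2% ± 0.869 in parotid and 76.8% ± 1.73 in submandibular gland (n = 4), higher in parotid in all 4 animals, where the exact sign-flip p of 0.125 is the smallest that 4 pairs allow. Fits were therefore made with all 6 pairs and without the parotid and submandibular libraries of animals 4 and 6.

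**Figure D1:**
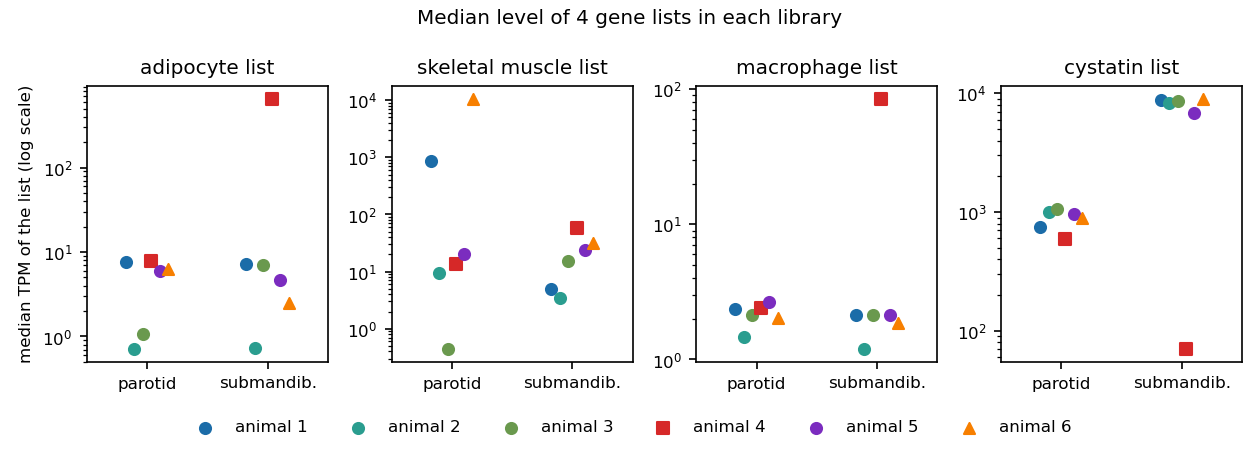
Median TPM (log scale) of the adipocyte, skeletal muscle, macrophage and secreted cystatin gene lists in each of the 6 parotid and 6 submandibular libraries, 1 point per library, coloured by animal. The submandibular library of animal 4 is high in adipocyte and macrophage genes (658 and 85.4 TPM) and low in cystatins (69.8 TPM against 6839 to 9049 TPM in the other 5), and the parotid library of animal 6 is high in muscle genes.

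The labels were then compared with the defining markers. In the 5 other submandibular libraries the median of the 4 measured cystatin genes was 6839 to 9049 TPM, and in the 6 parotid libraries 591 to 1063 TPM. In the submandibular library of animal 4 it was 69.8 TPM, and SMR3B, an abundant salivary secretory protein gene, was at 914 TPM, while the remaining 5 had at least 103269 TPM. Its values for SMR3B, BPIFA2, CST2, CST5 and CA6 were below the liver means, which for SMR3B was 3573 TPM, so it does not carry the expression of its label. The parotid library of animal 6 kept SMR3B at 52570 TPM and BPIFA2 at 19294 TPM.

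In a linear model of log2(TPM + 1) over all 30 libraries with the animal as a block (limma, Benjamini-Hochberg adjusted p below 0.05), 47 of 13550 genes differed between the glands, or 0.347% of those tested. Of these, 18 were higher in parotid (0.133%) and 29 lower (0.214%). Without animals 4 and 6, 33 genes passed (0.244%), 17 higher (0.125%) and 16 lower (0.118%). The results shared 29 genes, all in the same direction, and 51 genes passed in at least 1 of them, 20 higher and 31 lower in parotid. Trimmed-mean scaling, which moves the median difference of all genes from -0.13 to 0.02 on the log2 scale, gave 96 genes (0.708%), 38 higher (0.28%) and 58 lower (0.428%), and 120 (0.886%), 39 higher (0.288%) and 81 lower (0.598%), without animals 4 and 6. Leaving out the pair of 1 animal at a time gave 16 to 64 genes. When only the 12 libraries of both glands were fitted, no gene passed in limma (0 of 13550, 0%, where 632 had an unadjusted p below 0.05), and with the 8 libraries of animals 1, 2, 3 and 5 alone 178 did (1.31%), 56 higher (0.413%) and 122 lower (0.9%), among them 42 of the 51. None of the 51 changed sign in any of the 22 settings that tested it, of which a filter of 5 TPM tested 32 of the 51. Several of these settings, such as the fit of the 12 libraries, keep the log2 difference of the main fit and could not change a sign. The 51 were also chosen by their calls in these same libraries, so the constant sign is a description.

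The largest differences were in secreted proteins that were abundant in submandibular gland and low in parotid. CST2, a secreted cystatin, was at 135, 88.1, 538, 348, 629 and 745 TPM in the parotid libraries of animals 1 to 6. In the submandibular libraries it was at 27453, 83757, 93503, 70.8, 70150 and 112245 TPM. Every submandibular library other than that of animal 4 was above every parotid library, with a ratio of 36.8 between the lowest of the former and the highest of the latter, while in animal 4 the order was the opposite. The log2 difference, parotid minus submandibular, was -6.12 (SE 1.03, limma adjusted p = 0.00342) with all libraries and -7.94 (SE 0.67, adjusted p = 2.93e-07) without animals 4 and 6. The ratio of the means without those animals was 198. The parotid mean of 414 TPM was below the means of 573 TPM in pancreas and 848 TPM in liver, so the parotid level was no higher than in tissues that make no saliva.

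LOC703642, a protein-coding gene that lies next to CST3 in the RefSeq annotation of assembly T2T-MMU8v2.0, followed the same course. Its parotid values ran from 37.4 to 186 TPM. Its submandibular values were 12375, 22916, 23105, 7.97, 28020 and 19065 TPM in animals 1 to 6, so that again 5 animals lay above the whole parotid range, and animal 4 below it. The log2 difference was -5.80 (SE 1.09, adjusted p = 0.00929) and, without animals 4 and 6, -7.92 (SE 0.50, adjusted p = 3.50e-09). CST2 and LOC703642 together took 3.98 to 13.1% of all TPM in the submandibular libraries other than animal 4, 0.00788% in that of animal 4, and 0.0126 to 0.0932% in parotid.

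CST3, or cystatin C, is made by most tissues. It was at 1352, 1918, 1589, 834, 1298 and 1037 TPM in parotid and at 4075, 6437, 7393, 7803, 5987 and 5468 TPM in submandibular gland, lower in parotid in 6 of 6 animals without overlap. It fell by 2.23 (SE 0.50, adjusted p = 0.0400). Unlike CST2, its highest submandibular value was in the fat-rich library of animal 4. It was -1.94 without animals 4 and 6, with an adjusted p of 0.565, and 0.0317 with trimmed-mean scaling. Of the 4 secreted cystatins tested, CST2 and CST3 passed with all libraries and CST2 alone without animals 4 and 6, where 0.214% and 0.118% of all genes were lower. The list's median difference was -1.20 and -1.48, beside -0.13 and 0.03 over all genes. CST5, cystatin D, which is a known component of saliva, did not pass. It was at 2795 to 7180 TPM in parotid and, without animal 4, at 7690 to 13563 TPM in submandibular gland, lower in parotid in 5 of 6 animals (log2 difference -0.12, adjusted p = 1.0, and -1.03, adjusted p = 0.131 without animals 4 and 6). CST6 was below 50 TPM in all 12 libraries and did not pass. LOC713067, whose neighbours in the same annotation include CST5, was chosen here after its values were seen. It was at 0 to 0.328 TPM in parotid and at 3.44 to 22.9 TPM in the submandibular libraries other than animal 4, where it was listed at 0 (-2.82, adjusted p = 0.00337, and -3.74, adjusted p = 1.73e-07 without animals 4 and 6).

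**Figure D2:**
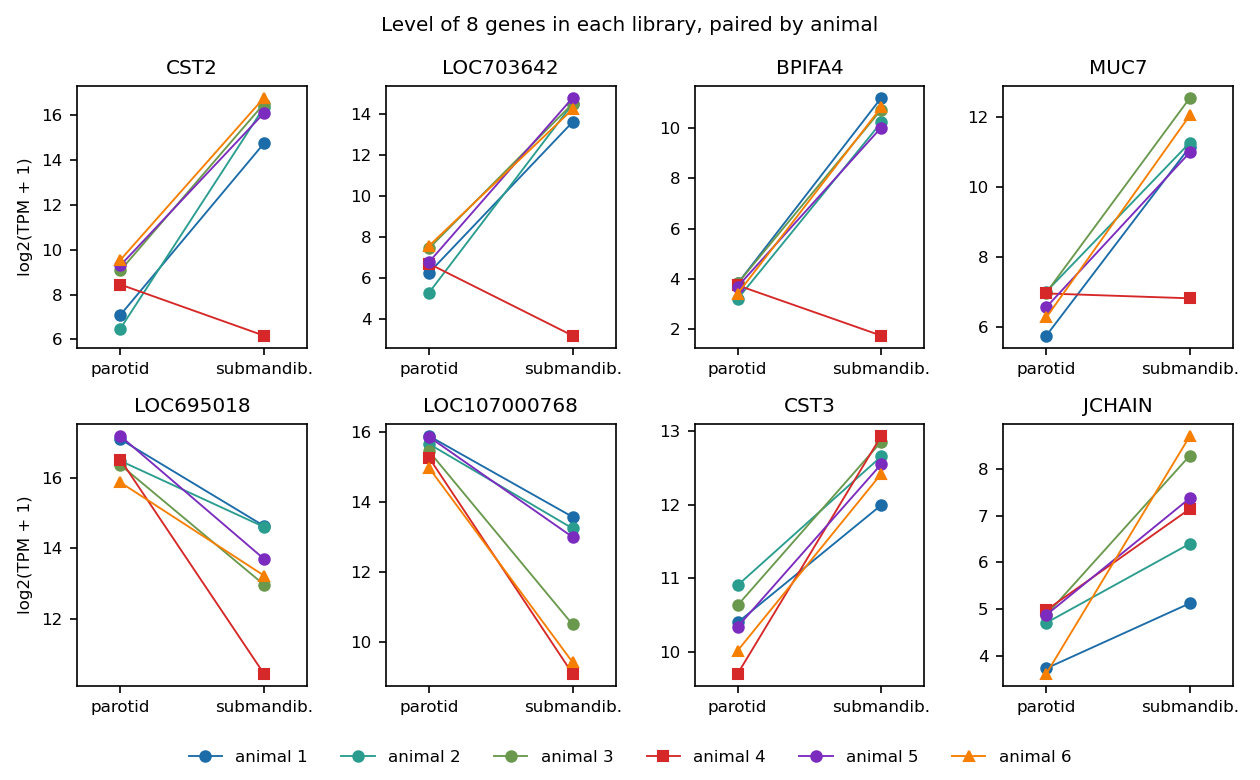
Level of 8 genes as log2(TPM + 1) in the parotid and submandibular library of each animal, joined by a line per animal; each panel has its own scale. CST2, LOC703642, BPIFA4 and MUC7 rise steeply towards submandibular gland in 5 animals and not in animal 4 (red squares), LOC695018 and LOC107000768 are higher in parotid in all 6 animals, and CST3 and JCHAIN are lower in parotid in all 6.

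The BPI fold proteins are secreted proteins of oral and airway epithelium. BPIFA4, which lies next to BPIFA2 in the RefSeq annotation, was at 13.1, 8.20, 13.1, 12.4, 11.9 and 9.64 TPM in parotid, a narrow range. In submandibular gland it was at 2362, 1199, 1704, 2.34, 1042 and 1823 TPM. Animal 4 apart, the lowest submandibular value was 79.5 times the highest parotid value. The log2 difference was -5.51 (SE 0.93, adjusted p = 0.00342), and -6.92 (SE 0.73, adjusted p = 1.04e-05) without animals 4 and 6. The parotid mean of 11.4 TPM lay below the 22.3 TPM of liver. Its abundant neighbour BPIFA2 was high in both glands. It had 19294 to 74909 TPM in parotid and 83114 to 138344 TPM in the submandibular libraries other than animal 4, which held 406 TPM. BPIFA2 was lower in parotid in 5 of 6 animals, but did not pass (-0.27, adjusted p = 1.0, and -1.23, adjusted p = 1.0 without animals 4 and 6).

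None of the 6 genes tested of the BPI fold list, BPIFA2 included and BPIFA4 not, passed with all libraries or without animals 4 and 6, and BPIFB2 passed in the latter with trimmed-mean scaling (-3.56, adjusted p = 0.0421) and in the fit of 8 libraries (-3.34, adjusted p = 0.0171). Of all genes, 0.598% and 0.9% were lower in parotid in these fits. BPIFB2 was at 0.565 to 5.10 TPM in parotid and 6.40 to 67.5 TPM in submandibular gland, lower in parotid in 6 of 6 animals. BPIFB1, a gene of mucous airway cells, was at 101 to 225 TPM in parotid and 74.8 to 228 TPM in submandibular gland, with full overlap (0.13 and 0.21, adjusted p = 1.0 in both).

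Genes of mucous cells formed the list with the most called members. Of its 12 members tested, 3 were lower in parotid with all libraries and 4 without animals 4 and 6 (0.214% and 0.118% of all genes were lower), and none was higher. With trimmed-mean scaling 4 and 6 were lower, against 0.428% and 0.598% of all genes. The median difference of the list was -1.03 with all libraries and -0.89 without animals 4 and 6. MUC7, the small soluble mucin of saliva, was at 52.9, 128, 126, 123, 93.8 and 76.3 TPM in parotid and at 2288, 2485, 6045, 112, 2047 and 4283 TPM in submandibular gland. All submandibular libraries other than animal 4 lay above all parotid libraries, and that of animal 4 lay within the parotid range. MUC7 fell by 4.22 (SE 0.77, adjusted p = 0.00782), and by 4.92 (SE 0.87, adjusted p = 0.00862) without animals 4 and 6. The parotid mean of 100.01 TPM was below the 144 TPM of liver, and the sublingual mean was 9738 TPM.

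MUC19, a large gel-forming mucin, was at 0.289 to 1.47 TPM in parotid. In submandibular gland it was at 49.2, 38.6, 41.1, 1.56, 21.9 and 46.5 TPM, again with animal 4 at the parotid level (-3.86, adjusted p = 0.00929, and -4.47, adjusted p = 0.0126 without animals 4 and 6). AGR2, a protein disulfide isomerase needed for mucin folding, was at 1.05 to 5.75 TPM in parotid and 28.8 to 55.5 TPM in submandibular gland other than animal 4, which held 5.78 TPM (-3.06, adjusted p = 0.00770, and -3.79, adjusted p = 0.00387). Its relative AGR3 passed without animals 4 and 6 (-1.56, adjusted p = 0.0419) and stayed below 5 TPM in both glands. TFF3, a trefoil peptide that is secreted with mucins, and GALNT6, which starts O-linked glycans, passed without animals 4 and 6 with trimmed-mean scaling (-2.77 and -1.08, adjusted p = 0.0361 and 0.0421). GCNT1, which branches O-linked glycans, is in none of the lists and was chosen after its values were seen. It was at 0.290 to 0.430 TPM in the parotid libraries other than animal 4 and at 1.59 to 3.42 TPM in submandibular gland (-1.25, adjusted p = 0.0211, and -1.61, adjusted p = 0.00526). The parotid range of GCNT1 leaves out a library that was not among those that stood apart, so it does not show that the glands separate. SPDEF, a transcription factor of mucous cells, did not differ beyond the spread, with 9.64 to 41.8 TPM in parotid and 18.8 to 28.9 TPM in the submandibular libraries other than animal 4 (0.54 and 0.15, adjusted p = 1.0 in both). In bulk tissue, fewer cells of a type and less RNA per cell cannot be told apart.

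Where the mean of the higher gland reached 100 TPM, 2 genes were called higher in parotid, a pair that lie side by side in the RefSeq annotation, near bitter taste receptor genes, and carry no name. LOC695018 was at 140446, 91851, 84836, 94151, 149832 and 60074 TPM in parotid and at 25478, 24981, 8016, 1385, 13318 and 9588 TPM in submandibular gland. Every parotid value was above every submandibular value, including those of animals 4 and 6. It rose by 3.33 (SE 0.43, adjusted p = 0.000126), and by 2.81 (SE 0.30, adjusted p = 1.34e-05) without animals 4 and 6. LOC107000768 was at 61138, 52169, 45113, 39773, 60132 and 32497 TPM in parotid and at 12262, 9757, 1448, 544, 8218 and 683 TPM in submandibular gland, also without overlap (4.05, SE 0.47, adjusted p = 2.94e-05, and 3.14, SE 0.36, adjusted p = 2.49e-05). The submandibular values of animals 4 and 6 were at the liver mean of 706 TPM or below it. The pair took 9.26 to 21.0% of all TPM in parotid and 0.193 to 3.77% in submandibular gland.

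A gene adjacent to that pair, LOC114670789, was about equally abundant in both glands. It had 87640 to 279863 TPM in parotid and 124029 to 265700 TPM in the submandibular libraries other than animal 4, with 2720 TPM in animal 4. Its log2 difference was 0.99 (adjusted p = 1.0) with all libraries and 0.09 (SE 0.26, adjusted p = 1.0) without animals 4 and 6. LOC722360, another abundant unnamed gene of the same chromosome, ran likewise from 48970 to 219049 TPM in parotid and from 68425 to 173096 TPM in submandibular gland without animal 4 (1.26 and 0.54, adjusted p = 1.0 in both). LOC107000764 separated animals rather than glands. It was at 1162 to 3251 TPM in both glands of animals 1 and 6 and at 98392 to 126135 TPM in both glands of animals 2, 3 and 5, while the parotid of animal 4 had 133374 TPM and its submandibular library 1363 TPM. These 3 genes were chosen after their values were seen. How the reads of similar genes were divided between them is not stated, so the single values of the cystatin, BPI fold, SMR3 and LOC genes are uncertain.

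Of the 14 small proline-rich and related saliva proteins listed, 5 were measured here. The listed PRH, PRB, HTN and STATH genes were not found by symbol. Whether an unnamed gene such as LOC695018 or LOC107000768 is one of them was not tested, so the list result covers the 5 only. None of the 5 passed in limma with either scaling, with or without animals 4 and 6, a share that cannot be set apart from the 0.347% and 0.244% of all genes. SMR3B was at 32483, 191028, 196684, 74372, 21108 and 52570 TPM in parotid and at 103269, 137035, 152354, 914, 119614 and 141448 TPM in submandibular gland, with overlapping ranges. Its log2 difference was 0.27 (SE 0.75) with all libraries and -0.83 (SE 0.53) without animals 4 and 6, each with an adjusted p of 1.0, so its sign rested on animal 4. PRR27 was at 26.2 to 240 TPM and 137 to 287 TPM, animal 4 apart, and PRR4 at 6.46 to 310 TPM and 27.5 to 117 TPM.

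Among 19 saliva enzymes and antimicrobial proteins, none passed with all libraries or without animals 4 and 6, beside 0.347% and 0.244% of all genes. In the fit of the 8 libraries of animals 1, 2, 3 and 5 alone, 4 were lower in parotid, beside 0.9% of all genes. They were ZG16B (adjusted p = 0.0146), PIP (0.0127), LCN2 (0.0260) and KLK1 (0.0306). DNASE1 passed with trimmed-mean scaling of all libraries (1.62, adjusted p = 0.0119), at 2.05 to 23.5 TPM in parotid and 1.57 to 5.85 TPM in submandibular gland. It was the 1 member of the 19 called there, where 0.28% of all genes were higher. With that scaling and without animals 4 and 6, no member passed. ZG16B is a lectin, and PIP the prolactin-inducible protein. ZG16B was at 516, 1622, 3108, 959, 578 and 2432 TPM in parotid and at 20304, 11208, 25651, 670, 18029 and 42560 TPM in submandibular gland. Animal 4 apart, its groups did not overlap, and its log2 difference was -3.28 (SE 0.81, adjusted p = 0.0920) and -4.02 (SE 0.97, adjusted p = 0.118) without animals 4 and 6. PIP was at 1184 to 5985 TPM in parotid and 30517 to 48261 TPM in submandibular gland other than animal 4, with 219 TPM in animal 4 (-2.54, adjusted p = 0.661, and -3.63, adjusted p = 0.106). CA6, the secreted carbonic anhydrase, had 2358 to 7984 TPM in parotid and 9370 to 15661 TPM in the submandibular libraries other than animal 4 (-0.49 and -1.25, adjusted p = 1.0 in both). KLK1, tissue kallikrein of duct cells, had 127 to 2688 TPM and, animal 4 apart, 986 to 2192 TPM (-0.69, adjusted p = 1.0, and -1.51, adjusted p = 0.918). LYZ, or lysozyme, had 190 to 2830 TPM and 203 to 1308 TPM with full overlap.

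The amylase locus genes did not pass. LOC713027, which lies beside AMY2B, had within-animal log2 differences, parotid minus submandibular, of 0.53, 1.69, 2.67, 5.71, -0.26 and 4.48 in animals 1 to 6. The fitted log2 difference of 2.47 (adjusted p = 0.107) shrank to 1.16 (adjusted p = 1.0) without animals 4 and 6, whose submandibular values of 206 and 166 TPM were below the liver mean of 385 TPM. The parotid value of AMY2B exceeded the submandibular one in each animal, with log2 differences of 0.0300 to 1.34, and that of LOC114669773 in 5 of 6, and neither passed (adjusted p = 1.0 in both). The 9 pancreatic acinar genes tested were also all above 0 with all libraries (median 0.25), and 8 were without animals 4 and 6 (median 0.22). Their median level was 40.8 to 233 TPM in the parotid libraries and 85.2 to 177 TPM in the submandibular ones. Whether pancreatic RNA bears on the amylase values was not tested.

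Genes of secretory immunoglobulin were lower in parotid in part. JCHAIN, which joins immunoglobulin A into dimers, was at 12.2, 25.1, 28.3, 30.5, 28.3 and 11.2 TPM in parotid and at 33.9, 83.7, 314, 141, 166 and 420 TPM in submandibular gland, lower in parotid in 6 of 6 animals without overlap. It fell by 2.72 (SE 0.57, adjusted p = 0.0226) with all libraries. It was -2.26 without animals 4 and 6, with an adjusted p of 0.364. LOC720839, annotated by RefSeq as a constant region gene, as antigen receptors have them, was at 12.5 to 69.4 TPM in parotid and 49.5 to 650 TPM in submandibular gland, lower in 6 of 6 animals (-2.72, adjusted p = 0.0450, and -2.64, adjusted p = 0.269). LOC701504, a protein-coding gene with 19 antigen receptor variable segments among the 40 RefSeq genes on each side of it, was at 13.5 to 133 TPM and 108 to 706 TPM (-2.80, adjusted p = 0.0151, and -1.93, adjusted p = 0.571). Its highest submandibular value was in animal 4, where the B cell gene CD79A was at 31.2 TPM against at most 1.22 TPM in the other 11 libraries. None of the 3 passed without animals 4 and 6.

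On the epithelial side of the same route, PIGR and CCL28 were measured. PIGR, the receptor that carries dimeric immunoglobulin A across the epithelium, was at 1.25 to 8.95 TPM in parotid. In submandibular gland it was at 32.0, 62.1, 99.6, 2.50, 21.2 and 62.3 TPM. CCL28, a chemokine that draws plasma cells making immunoglobulin A, was at 2.15 to 14.5 TPM and 32.9 to 78.2 TPM, with 1.74 TPM in the submandibular library of animal 4. Both were lower in parotid in the 5 animals other than animal 4, and both passed without animals 4 and 6 with trimmed-mean scaling (-3.30, adjusted p = 0.0162, and -3.26, adjusted p = 0.0422), and not without the scaling (adjusted p = 0.105 and 0.0855). Of the 14 genes of this list tested, JCHAIN was thus the 1 called with all libraries and none was called without animals 4 and 6 (lower in parotid 0.214% and 0.118% of all genes). In the fit of 8 libraries, where 0.9% of all genes were lower, 3 were lower, JCHAIN, PIGR and CCL28 (adjusted p = 0.0350, 0.00478 and 0.0139). The list's median was -0.59 and -0.15.

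**Figure D3:**
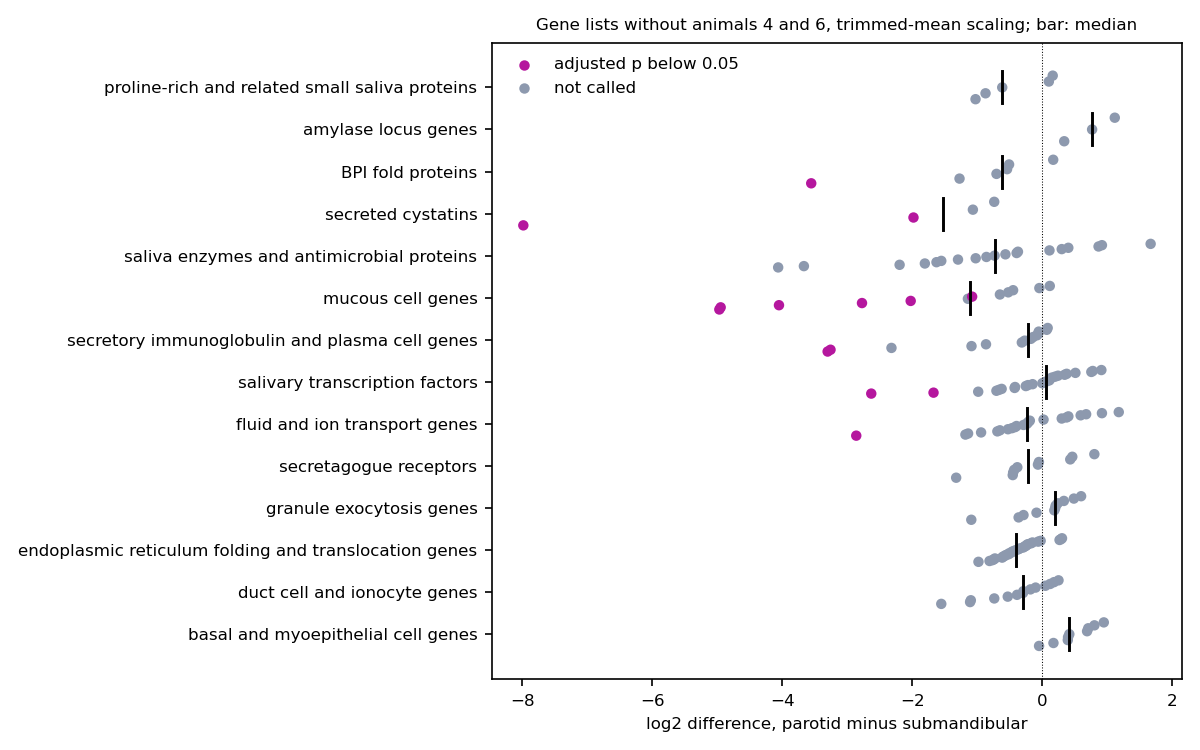
Log2 difference between parotid and submandibular gland of each tested member of 14 gene lists, without animals 4 and 6 and with trimmed-mean scaling; points are genes, coloured where the adjusted p was below 0.05, and black bars are list medians. The called members lie left of 0 in the cystatin, BPI fold, mucous, immunoglobulin, transcription factor and ion transport lists, and no member of the other 8 lists was called.

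Of 26 transcription factors known from salivary glands, none passed with all libraries or without animals 4 and 6, beside 0.347% and 0.244% of all genes, and the median difference was 0.06 in both. With trimmed-mean scaling 2 were lower in parotid, both with all libraries and without animals 4 and 6, where 0.428% and 0.598% of all genes were. FOXA1, a forkhead factor, was among them (-1.36, adjusted p = 0.0153, and -1.67, adjusted p = 0.00386), at 0.149 to 0.391 TPM in parotid and 1.495 to 2.20 TPM in submandibular gland other than animal 4. BHLHA15, the acinar factor known as Mist1, had 30.6 to 145 TPM in parotid and 64.2 to 111 TPM in submandibular gland other than animal 4, and SOX10 had 13.01 to 57.4 TPM and 20.4 to 30.0 TPM. Outside the list, and chosen after their values were seen, a pair of factors did pass. TLX1, a homeobox factor, was at 0.0248 to 0.233 TPM in parotid and at 9.90, 10.9, 10.3, 0.250, 11.9 and 12.8 TPM in submandibular gland, so that 5 animals lay close together and animal 4 at the parotid level (-2.87, adjusted p = 0.00172, and -3.40, adjusted p = 0.000540 without animals 4 and 6). TFAP2B went the other way. It was at 1.11 to 3.40 TPM in parotid and 0 to 1.33 TPM in submandibular gland, higher in parotid in 6 of 6 animals (1.02, adjusted p = 0.00708, and 1.01, adjusted p = 0.00526).

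Of 23 fluid and ion transport genes, CFTR was the 1 called with all libraries and without animals 4 and 6, beside 0.347% and 0.244% of all genes. CFTR, the chloride and bicarbonate channel, was at 0.128, 0.262, 0.111, 1.00, 0.0780 and 0.173 TPM in parotid and at 4.39, 4.44, 4.49, 0.0505, 4.01 and 2.83 TPM in submandibular gland. The groups were separate in 5 animals and reversed in animal 4 (-1.61, SE 0.33, adjusted p = 0.0226, and -2.22, SE 0.32, adjusted p = 0.000681). STK39, the kinase SPAK that acts on cation chloride cotransporters, is outside the list and was lower in parotid in 6 of 6 animals, with 0.952 to 3.22 TPM against 5.60 to 10.2 TPM (-1.77, adjusted p = 0.00482, and -1.69, adjusted p = 0.0862). AQP5, the acinar water channel, had 60.2 to 159 TPM in parotid and 63.5 to 153 TPM in submandibular gland other than animal 4 (1.04 and 0.63, adjusted p = 1.0 in both). ANO1, the calcium-activated chloride channel, was higher in parotid in 5 of 6 animals and did not pass (0.97 and 1.18, adjusted p = 1.0 in both). It passed in the fit of 8 libraries (adjusted p = 0.0160), where 0.413% of all genes were higher. None of 10 secretagogue receptors passed with all libraries or without animals 4 and 6. The muscarinic receptor CHRM1 passed in the fit of 8 libraries (-1.06, adjusted p = 0.0146), where 0.9% of all genes were lower. It was at 0.381 to 1.47 TPM in parotid and 1.55 to 4.41 TPM in submandibular gland other than animal 4. The muscarinic receptor CHRM3 had 0.563 to 2.56 TPM in parotid and 1.96 to 2.62 TPM in submandibular gland other than animal 4, and the beta-adrenergic receptor ADRB1 had 4.79 to 14.3 TPM and 2.22 to 6.92 TPM.

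The lists for granule release, protein folding, ducts and basal cells had no called member in these fits. None of 11 granule exocytosis genes, 29 endoplasmic reticulum folding and translocation genes, 14 duct cell and ionocyte genes and 9 basal and myoepithelial genes passed with all libraries, without animals 4 and 6, or with trimmed-mean scaling of either, where 0.244% to 0.886% of all genes did. In the fit of 8 libraries the duct genes KLK1 and ATP6V1B1 were lower (adjusted p = 0.0306 and 0.0453) and the basal cell gene KRT14 higher (adjusted p = 0.0413). Of all genes, 0.9% were lower and 0.413% higher in that fit. The endoplasmic reticulum genes were below 0 in 28 of 29 with a median of -0.54, and in 25 of 29 with a median of -0.36 without animals 4 and 6, beside -0.13 and 0.03 over all genes. The markers of other cell types gave no calls either. The 10 adipocyte genes had a median of -1.10 with all libraries and -0.10 without animals 4 and 6, the 8 macrophage genes -0.79 and -0.04, and the 9 muscle genes 1.76 and 1.18, where the parotid library of animal 1 also held muscle RNA. The B and T lymphocyte (6 tested), endothelial (6), fibroblast (5), Schwann cell (4), red blood cell (4), oral epithelium (5), pancreatic (9) and liver (9) lists had no member past the threshold under these settings.

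**Figure D4:**
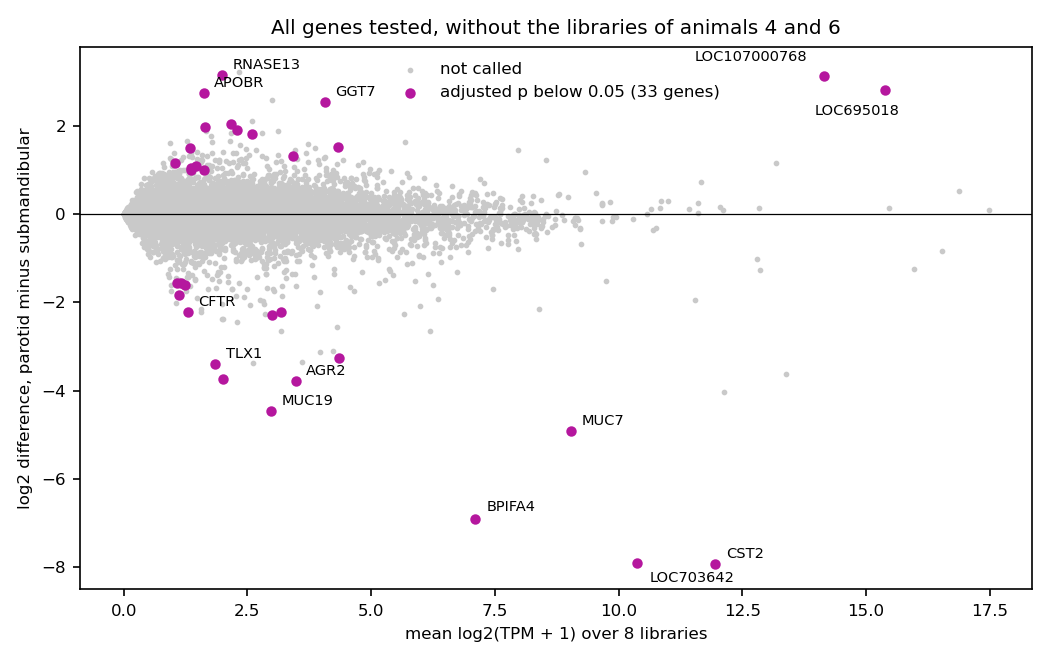
Log2 difference between parotid and submandibular gland against the mean log2(TPM + 1) over the 8 libraries of animals 1, 2, 3 and 5, for all 13550 genes tested; the 33 called genes are coloured and 13 are named. The abundant called genes are few, with LOC695018 and LOC107000768 above 0 and CST2, LOC703642, BPIFA4 and MUC7 between -4.92 and -7.94.

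Most of the 51 called genes were of low level. In 41 of them the higher gland had a mean below 100 TPM. Of the genes below that level, AGR2 and MUC19 were named as abundant members of the mucous list. The others named here were chosen after their values were seen. Of the 31 genes lower in parotid, 31 had the same direction in animals 1, 2, 3 and 5, 20 in all 6 animals, and 10 went the other way in animal 4. For 24 of the 31 the parotid mean was at or below the liver mean. The submandibular mean was so for 4 of the 20 genes higher in parotid. Whether such low levels are background was not tested, so ratios over them are uncertain. The mean in sublingual gland was above that in submandibular gland for 20 of the 31, as for MUC7 and AGR2, whose sublingual means were 9738 and 157 TPM. SPX, which encodes the peptide hormone spexin, was at 2.84 to 10.02 TPM in parotid and 49.0 to 86.1 TPM in submandibular gland other than animal 4 (-2.69, adjusted p = 0.0234, and -3.25, adjusted p = 0.0139). SLC6A14, an amino acid transporter, had at most 0.332 TPM in parotid and 1.93 to 3.85 TPM in submandibular gland other than animal 4 (-1.51, adjusted p = 0.0200, and -1.84, adjusted p = 0.00521). GNA14, a G protein alpha subunit, had 0.316 to 2.72 TPM and 4.93 to 8.91 TPM, and the matrix protein gene NPNT 0.208 to 0.749 TPM and 2.09 to 3.57 TPM, each without overlap and with animal 4 on the side of the others (-2.04 and -1.43, adjusted p = 0.00929 and 0.0137). Neither GNA14 nor NPNT passed without animals 4 and 6 (adjusted p = 0.105 and 0.0747).

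Of the 20 genes higher in parotid, 17 were higher in all 6 animals. RNASE13, a member of the ribonuclease A family, was at 7.68, 15.9, 6.12, 8.14, 17.96 and 1.49 TPM in parotid and at 0.260, 0.694, 0.176, 1.34, 0.244 and 0.508 TPM in submandibular gland. Its parotid values were all above the submandibular ones, with the muscle-rich piece of animal 6 the lowest (2.55, SE 0.28, adjusted p = 2.25e-05, and 3.16, SE 0.24, adjusted p = 6.24e-08). GGT7, of the gamma-glutamyltransferase family, was at 43.5, 34.1, 32.6, 65.3, 50.1 and 9.80 TPM and at 5.10, 5.75, 8.98, 29.8, 4.55 and 4.53 TPM (2.05, adjusted p = 0.0226, and 2.55, adjusted p = 0.00526). The value of animal 4 in submandibular gland was above that of animal 6 in parotid, and the other libraries did not overlap. PRSS41, a serine protease, was at 5.36 to 12.03 TPM in parotid and 0.943 to 2.43 TPM in submandibular gland (1.87, adjusted p = 0.000706, and 2.04, adjusted p = 0.000829). APOBR, an apolipoprotein B receptor, had 1.44 to 16.1 TPM and 0.0701 to 1.93 TPM (2.27, adjusted p = 0.00100, and 2.75, adjusted p = 0.000540). FBLN7, a fibulin of the extracellular matrix, had 1.38 to 6.16 TPM and 0.259 to 1.95 TPM (1.47, adjusted p = 0.00262, and 1.99, adjusted p = 1.04e-05). OPCML, a cell adhesion molecule, had 1.75 to 14.2 TPM and 0.0677 to 4.44 TPM (1.87, adjusted p = 0.00342, and 1.82, adjusted p = 0.00324). HPGD, which inactivates prostaglandins, had 1.10 to 16.1 TPM and 0.0390 to 0.873 TPM without overlap, and passed with all libraries (1.91, adjusted p = 0.0292, against 0.297 without animals 4 and 6).

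**Figure D5:**
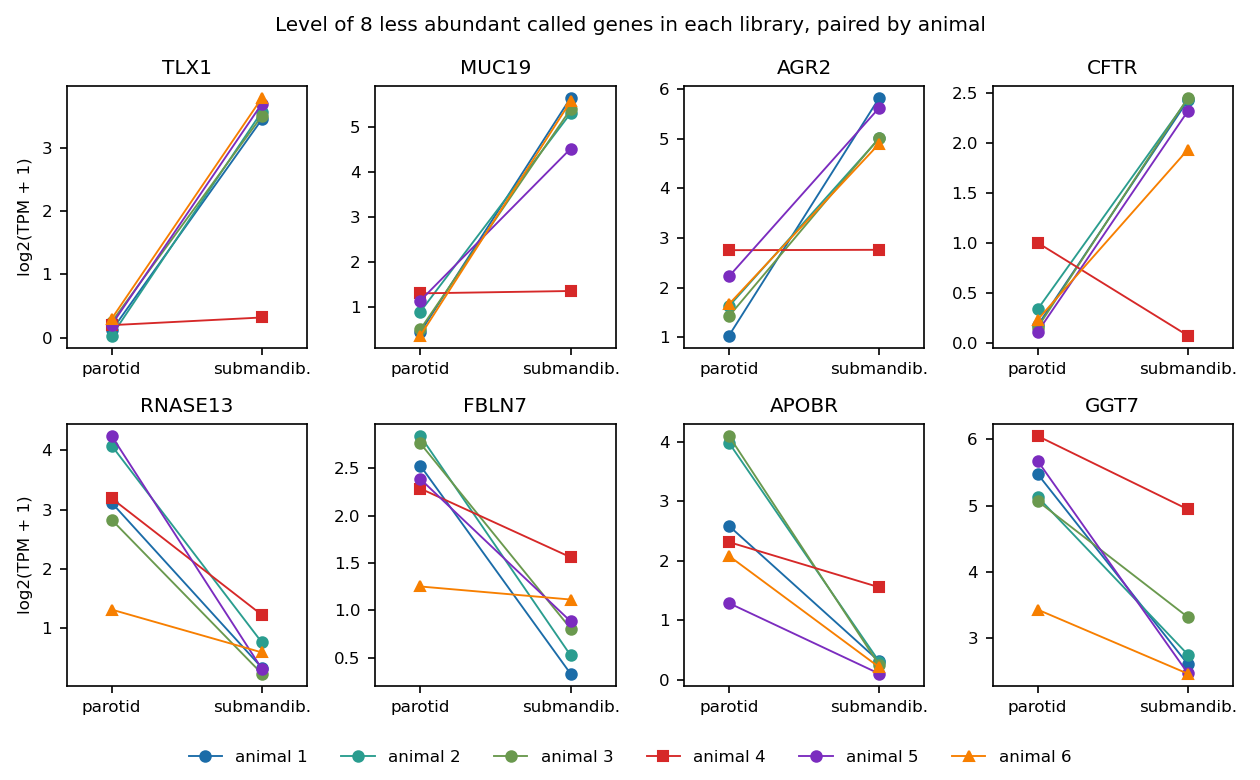
Level of 8 less abundant called genes as log2(TPM + 1) in both glands of each animal, joined by a line per animal; each panel has its own scale. TLX1, MUC19, AGR2 and CFTR are near 0 to 3 in parotid. The submandibular library of 5 animals is above every parotid value of the same gene, while that of animal 4 (red squares) is within 0.2 of its parotid level or, for CFTR, below it. RNASE13, FBLN7, APOBR and GGT7 are higher in parotid in all 6 animals.

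Whether the gland difference varies with sex could not be settled here. Among 13 genes compared, none had opposite signs in all 4 females and both males. The called genes among them were chosen for a shared direction in animals of both sexes, so they could not show such a reversal. An interaction of sex and gland passed for 0 of 13550 genes in limma, with 120 at an unadjusted p below 0.05. The power of the interaction test with so few males was not estimated, so the lack of calls does not show that the sexes are alike.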

How the data were processed

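RNA of 5 tissues from 6 macaques was sequenced as paired reads of 150 bases on an Illumina HiSeq, per the labels. The authors deposited 1 table of TPM values per gene, which the table's name credits to kallisto; the submitters' processing notes also name FastQC, MultiQC, cutadapt, HISAT2, SAMtools, featureCounts and DESeq2, without versions. The transcript set and genome build are not given in the sources used here. Because deposited TPM carries no read totals, depth is unknown and no counting intervals are given. No column was left unused (0).

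The 13550 genes that reached 1 TPM in 6 or more of the 30 libraries were tested. Log2(TPM + 1) was fitted with limma 3.58.1 in R 4.3.3, with tissue and animal as terms, a variance trend and Benjamini-Hochberg adjustment; fold changes are on the log2(TPM + 1) scale, which understates low genes. Trimmed-mean factors trimmed 30% of log ratios and 5% of mean levels at each end. In each pair of values, the first is from all libraries and the second without the parotid and submandibular libraries of animals 4 and 6. Single values were compared by exact sign-flip permutation. The pairing comes from the animal named in the labels; same-animal libraries deviated together with a mean r of 0.172 (-0.0774 to 0.43), against -0.00633 between animals. The highest r between 2 libraries was 0.979 and none were identical.

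Genes named were those called in either fit with the same direction in animals 1, 2, 3 and 5 whose mean in the higher gland reached 100 TPM, up to 10 each way, up to 6 most abundant members of each list, and the amylase locus; all others were chosen after their values were seen. The members and lists were chosen with earlier results of these data known. Of 301 list genes, 282 were matched and 259 tested; 90.1% of symbols were found in the RefSeq table of T2T-MMU8v2.0, used for names and neighbours only. In simulated data with 100 genes changed at each size, the fit of all libraries recovered 65% of changes of 1.5 and 96% of 3 (log2), with 2.42% of calls false. Without animals 4 and 6 these were 49%, 93% and 8.97%. The simulated noise was gaussian and independent, with a single spread per gene taken from all libraries in both runs. It thus held no library that stood apart, as the submandibular library of animal 4 does, and the rates may not hold for the real data.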

Additional observations from a re-analysis of the deposited data

Results flagged for a closer look

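A Dixon test at the 5% level was used to pick out a library that lay apart from the remaining 5 of its gland, from its gap to the next library as a share of the range. It picked out 7 of 32 sets of 6 libraries. Chance alone picks out about 1.6 of 32 independent sets, but these sets share libraries, and the libraries of animals 4 and 6 were known to stand apart, so the number is a description. The submandibular library of animal 4 accounted for 6 of the 7. On the log2(TPM + 1) scale it held CST2 at 6.17, LOC703642 at 3.17, BPIFA4 at 1.74 and MUC7 at 6.82, each far below the other 5, and the median of the adipocyte genes at 9.37, far above them. Its 10 most abundant genes held 11.1% of TPM. The 10 most abundant genes held 38.8% in the parotid library of animal 6, which was the other library picked out, below the other 5 parotid libraries.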

How the results depend on the processing

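The 51 genes called with all libraries or without animals 4 and 6 kept their direction in each of the 22 settings that tested them (the filter of 5 TPM tested 32 of them), but the number of calls varied. The constant direction is no independent check, because the 51 were chosen by their calls in these libraries. The fits of the 12 and 18 libraries, without the block, with other filters or without the variance trend also keep the log2 difference of the main fit. With all libraries 47 genes passed (18 higher and 29 lower in parotid). Trimmed-mean scaling gave 96 (38 and 58), quantile normalisation 111 (47 and 64) and array weights 780 (368 and 412). Without animals 4 and 6, 33 passed, 16 of them lower, and 120 (39 and 81) with trimmed-mean scaling. Fitting the 12 libraries alone gave 0 (0 and 0, with 632 at an unadjusted p below 0.05), the 18 gland libraries 7 (4 and 3), the 8 libraries without animals 4 and 6 178 (56 and 122), and these with trimmed-mean scaling 367 (106 and 261). A filter of 5 TPM gave 29 (6 higher), and a pseudocount of 0.1 gave 53 lower. Leaving out each animal's pair in turn gave 16 to 64 genes, 9 to 18 higher and 6 to 46 lower; the pairs of animals 1, 2, 3, 5 and 6 each lowered the total by more than 1.5 times (17, 18, 16, 21 and 26 without them). Without the animal as a block, the pairing removed, 40 passed. As alternatives chosen after seeing the data, leaving out the submandibular library of animal 4 alone gave 63, and the parotid library of animal 6 alone 35, with 19 lower. The cause of these differences was not tested. The share of the 10 most abundant genes, 6.91 percentage points higher in parotid, ran from -4.17 to 15.2 with 1 animal left out and reversed to -4.17 without animal 4. Depth is unknown, so no limit of detection can be given, and genes near the filter of 1 TPM rest on few reads by an unknown margin.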

Other observations

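Several genes higher in parotid lie together in the RefSeq annotation of T2T-MMU8v2.0, a pattern noticed after the values were seen and not tested as a group. In order, NDRG2, TPPP2, RNASE13, RNASE8 and ARHGEF40 had log2 differences of 1.24, 1.91, 3.16, 1.53 and 1.25 without animals 4 and 6. TPPP2, of the family of tubulin polymerisation proteins, was at 1.74 to 13.4 TPM in parotid and 0.117 to 2.66 TPM in submandibular gland, and passed with all libraries and without animals 4 and 6 (adjusted p = 0.00430 and 0.0100). RNASE8 was at 6.77 to 60.7 TPM and 0.138 to 26.3 TPM and passed without animals 4 and 6 (adjusted p = 0.0230). ARHGEF40 passed there with trimmed-mean scaling (adjusted p = 0.0305). NDRG2 was higher in parotid in 6 of 6 animals, at 329 to 906 TPM and 69.6 to 536 TPM, and did not pass (adjusted p = 0.253 and 0.990). The outer neighbours METTL17 and ZNF219 did not pass either. Whether reads of neighbouring or overlapping genes were separated by strand is not stated.

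GNLY, the granulysin gene of cytotoxic lymphocytes, and the class II gene MAMU-DQA1 were higher in parotid in animals 1, 2, 3 and 5 and lower in animals 4 and 6. They passed without animals 4 and 6 with trimmed-mean scaling (1.89 and 1.38, adjusted p = 0.00474 and 0.0496), and not without the scaling (adjusted p = 0.321 and 0.963).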
